A study of Homo sapiens with 8 samples.

Results

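MHC class II molecules present peptides to CD4+ T cells. Each is a pair of an alpha and a beta chain, of the DR, DP or DQ type, that is built around the invariant chain CD74 and loaded in endosomes with the help of the peptide editor DM, itself held back by DO in B cells. CIITA, the class II transactivator, does not bind DNA on its own: it is recruited by the RFX complex, NF-Y and CREB, which sit on the X and Y boxes shared by class II promoters. Normal B cells express these genes, and they are shut down, CIITA included, when B cells become plasma cells.

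The 10 genes described here are CIITA, CD74, HLA-DRA, HLA-DRB1, HLA-DPA1, HLA-DPB1, HLA-DQB1, HLA-DMA, HLA-DMB and HLA-DOB, out of 24351 genes in the table. They were chosen by name and from their measured levels, with each manipulated library set against both controls of its line. Their levels against those controls are therefore described and not tested. The difference between the cell lines played no part in that choice and was tested, although the levels of CD74 and HLA-DRA by line were already known.

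RNA came from ARP1 and H929, a pair of established human multiple myeloma lines (a cancer of plasma cells), each labelled with 4 genotypes: CHEK1 overexpression, the control of overexpression, CHEK1 knockdown and the control of knockdown. CHEK1 encodes a DNA damage checkpoint kinase. The labels do not say how it was raised or lowered, what the controls carried, or whether a line was 1 clone. There was 1 library for each line and genotype, 8 in all, so no value within a line has a replicate. Levels are FPKM (fragments mapped to a transcript, divided by its length and by the size of the library), summed over the transcripts of a gene. In the names used below, the own control is the one labelled for that manipulation, and the other control belongs to the other manipulation in the same line.

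Summed FPKM was 631871 to 693299 per library, and 13084 to 14092 genes reached 1 FPKM. CHEK1 was at 114 FPKM with overexpression against 78.2 in the ARP1 control, and at 107 against 81.6 in H929. In the library labelled knockdown it stood at 51.6 against 61.0 in ARP1, a smaller gap than that between the ARP1 controls (78.2 and 61.0). In H929 CHEK1 stood at 84.8 against 80.7, so the label was not borne out by the summed level there. Of 8 plasma cell markers all were above the low-level filter (1 FPKM or more in at least 2 libraries), and SDC1 stood at 150 to 223 FPKM, while SLAMF7 was at most 0.20 in H929. Of 7 mature B cell markers 2 passed, PAX5 and CD79A, and the summed list ran from 4.10 to 6.66 FPKM in the ARP1 libraries and from 0.27 to 0.96 in those of H929. Myeloid and dendritic markers, the other cells rich in class II, summed to between 1.29 and 2.58 FPKM in ARP1 and between 2.88 and 3.83 in H929, with 3 of 8 past the filter and CD1C at 0 throughout. The 6 T and NK markers summed to at most 1.14 in ARP1 and 14.3 in H929, nearly all of it GNLY in the overexpression library, with CD3D, CD3G and NKG7 at 0. The 5 stroma, endothelium and epithelium markers summed to 1.49 to 5.57 in ARP1 and 7.25 to 17.2 in H929. In bulk RNA, fewer cells expressing a gene and less RNA per cell cannot be told apart.

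Promoter sequence was read for letters like those of the X and Y boxes. Stretches upstream of the RefSeq start, each ending before any GENCODE transcript start near it, are printed below for the genes that hold the X-type or Y-type letters, with capitals marking each match to the letters CNGATGA (X-type) or ATTGG (Y-type, CCAAT where it lies on the other strand). They are from RefSeq on GRCh38.p14, written on the strand of the gene. For HLA-DQB1, HLA-DMA and HLA-DOB another annotated transcript starts further upstream, so the annotated gene extends past the stretch. HLA-DRB1 (chr6:32589849-32589998, minus strand), HLA-DQB1 (chr6:32666695-32666807, minus), HLA-DMA (chr6:32953123-32953247, minus) and HLA-DOB (chr6:32817049-32817152, minus) hold both in order. In the stretch printed, HLA-DMB (chr6:32941071-32941178, minus) shows the X-type letters. CD74 (chr5:150412930-150413060, minus) and HLA-DPB1 (chr6:33075840-33075925, plus) show the Y-type letters there. Outside the stretches printed, HLA-DMB also holds the Y-type letters and CD74 the X-type letters, each on the other strand.
HLA-DRB1: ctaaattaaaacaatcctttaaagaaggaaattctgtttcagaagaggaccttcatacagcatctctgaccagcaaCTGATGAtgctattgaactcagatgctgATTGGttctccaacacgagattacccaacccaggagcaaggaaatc
HLA-DQB1: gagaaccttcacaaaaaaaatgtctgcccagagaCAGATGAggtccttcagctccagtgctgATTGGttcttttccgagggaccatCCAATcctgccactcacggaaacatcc
HLA-DMA: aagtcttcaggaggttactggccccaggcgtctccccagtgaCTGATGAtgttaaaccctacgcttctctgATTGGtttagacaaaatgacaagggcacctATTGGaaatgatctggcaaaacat
HLA-DOB: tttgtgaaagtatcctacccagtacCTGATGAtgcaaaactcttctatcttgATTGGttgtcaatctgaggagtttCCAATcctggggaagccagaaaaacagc
HLA-DMB: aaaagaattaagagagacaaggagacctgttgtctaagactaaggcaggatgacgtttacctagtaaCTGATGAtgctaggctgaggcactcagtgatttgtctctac
CD74: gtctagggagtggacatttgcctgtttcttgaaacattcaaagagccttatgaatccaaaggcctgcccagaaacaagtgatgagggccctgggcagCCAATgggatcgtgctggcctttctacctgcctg
HLA-DPB1: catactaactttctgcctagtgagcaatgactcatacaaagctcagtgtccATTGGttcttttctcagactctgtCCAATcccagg

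Both were searched on both strands over the 250 bases before each RefSeq start, do not overlap each other, and were chosen after these promoters had been read. Promoters of 8 of the 10 genes were matched, with HLA-DRA and CIITA missing. Of those 8 genes, 6 held the X-type letters against 7.69% of all 35116 promoters, and 7 held the Y-type letters against 32.0%. The longer form CTGATGATG, which includes the X-type letters, was found in HLA-DRB1, HLA-DMA, HLA-DMB and HLA-DOB and in 0.222% of all promoters (78 of 35116). An X-type match followed by a Y-type match on the same strand, with 10 to 30 bases between, was found in 4 of the 8, HLA-DRB1, HLA-DQB1, HLA-DMA and HLA-DOB, and in 0.179% of all promoters (63). The gap between the matches was 21 bases in HLA-DRB1, 21 in HLA-DQB1, 22 in HLA-DMA and 20 in HLA-DOB. HLA-DPA1, searched at both its RefSeq starts, held neither. These matches are letters in a window and no measure of binding. HLA-DOB holds the pair at a like spacing, and its levels across the libraries differed from those of the other genes, as given below.

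**Figure D1:**
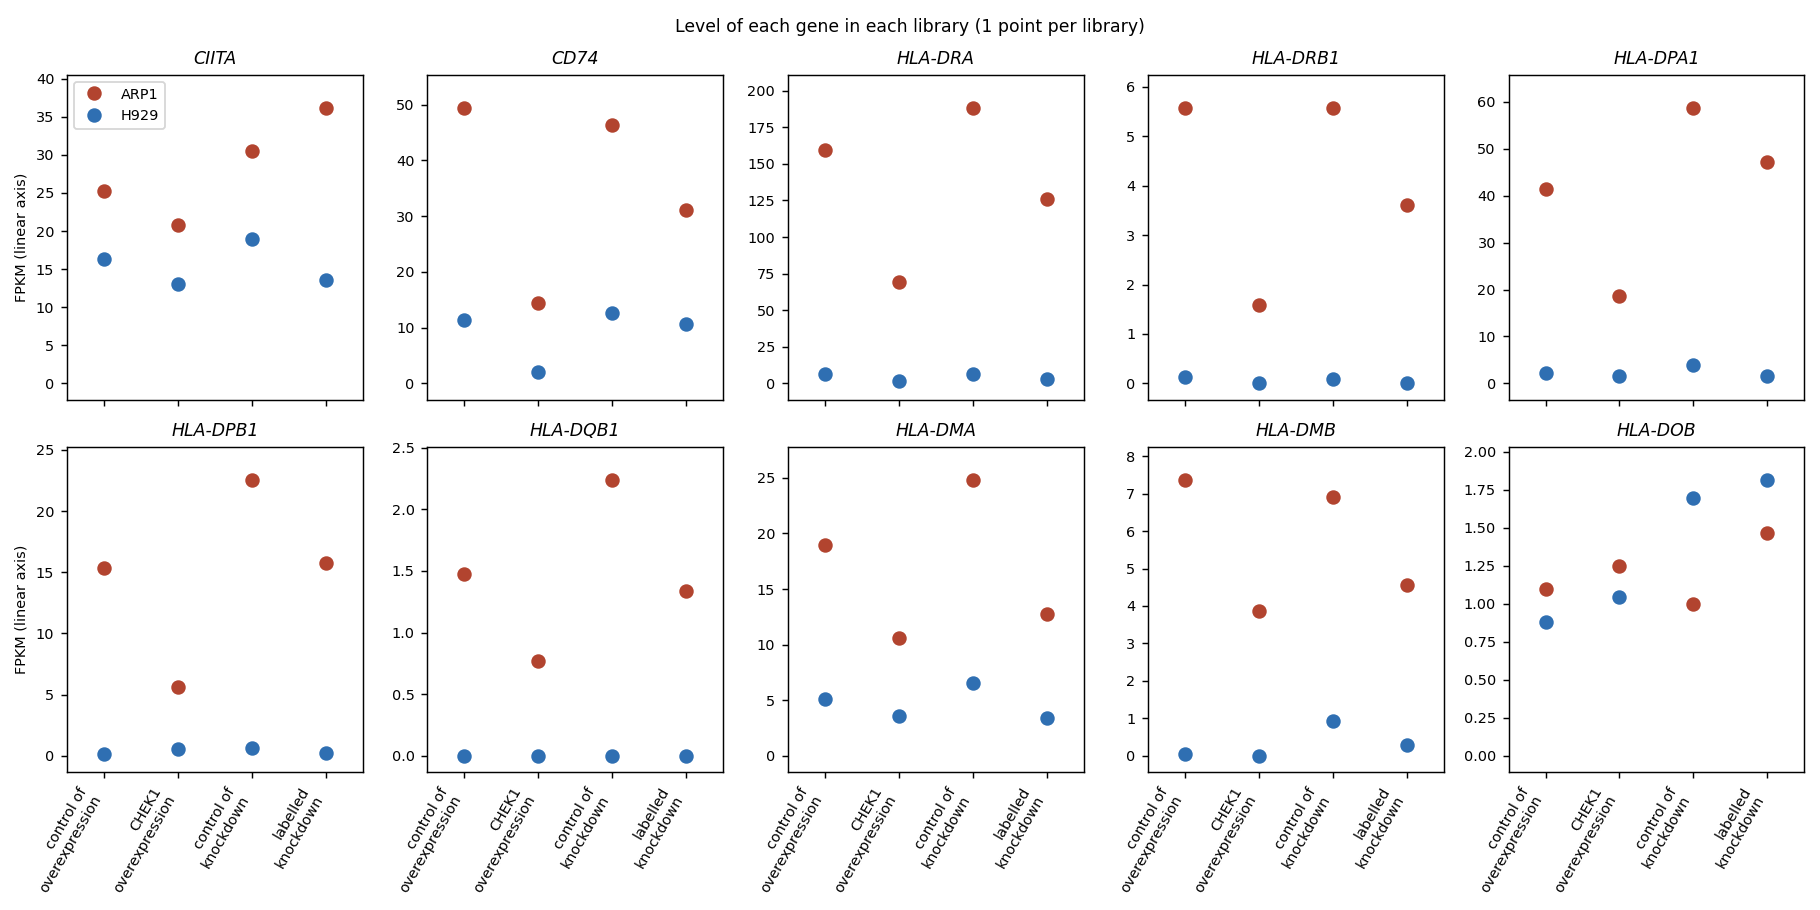
FPKM (linear axis) of each of the 10 genes in the 8 libraries, 1 point per library, with genotype along the horizontal axis and colour giving the line. ARP1 lies above H929 in every genotype for all genes but HLA-DOB, and the CHEK1 overexpression point is the lowest of its line for CIITA, CD74 and HLA-DRA in both lines.

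CIITA (ENSG00000179583.19, GRCh38 chr16:10866222-10943021, plus strand) stood in ARP1 at 25.3 FPKM in the control of overexpression, 20.8 with CHEK1 overexpression, 30.5 in the control of knockdown and 36.2 in the library labelled knockdown. In H929 the same genotypes held 16.4, 13.0, 18.9 and 13.5 FPKM. The overexpression library was the lowest of its line in both, at 0.82-fold of its own control and 0.68-fold of the other control in ARP1, and at 0.80-fold and 0.69-fold in H929. The library labelled knockdown was the highest of the ARP1 libraries and below both controls in H929. Its log2 ratio to its own control (all log2 ratios are of FPKM plus 1) was 0.24 in ARP1 and -0.45 in H929.

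Most summed CIITA came from 2 places along the gene. The 4 transcripts that begin at or just after 10877198 (10976 bases after the gene's first base) held 15.7, 10.9, 18.6 and 23.0 FPKM in ARP1, in the order control of overexpression, overexpression, control of knockdown and labelled knockdown. They held 8.66, 5.81, 12.3 and 6.91 in H929. With overexpression these transcripts stood at 0.69-fold of the own control and 0.59-fold of the other in ARP1, and at 0.67-fold and 0.47-fold in H929, further below the controls than the gene sum. Transcript CIITA-210, which does not code for protein and starts 74497 bases into the gene where DEXI lies on the other strand, made up 26.9% to 46.4% of summed CIITA. It varied less, from 7.55 to 9.75 FPKM across ARP1 and 4.88 to 6.27 across H929. The labels do not say whether counting used strand, so reads of CIITA-210 and DEXI may not be separated.

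**Figure D2:**
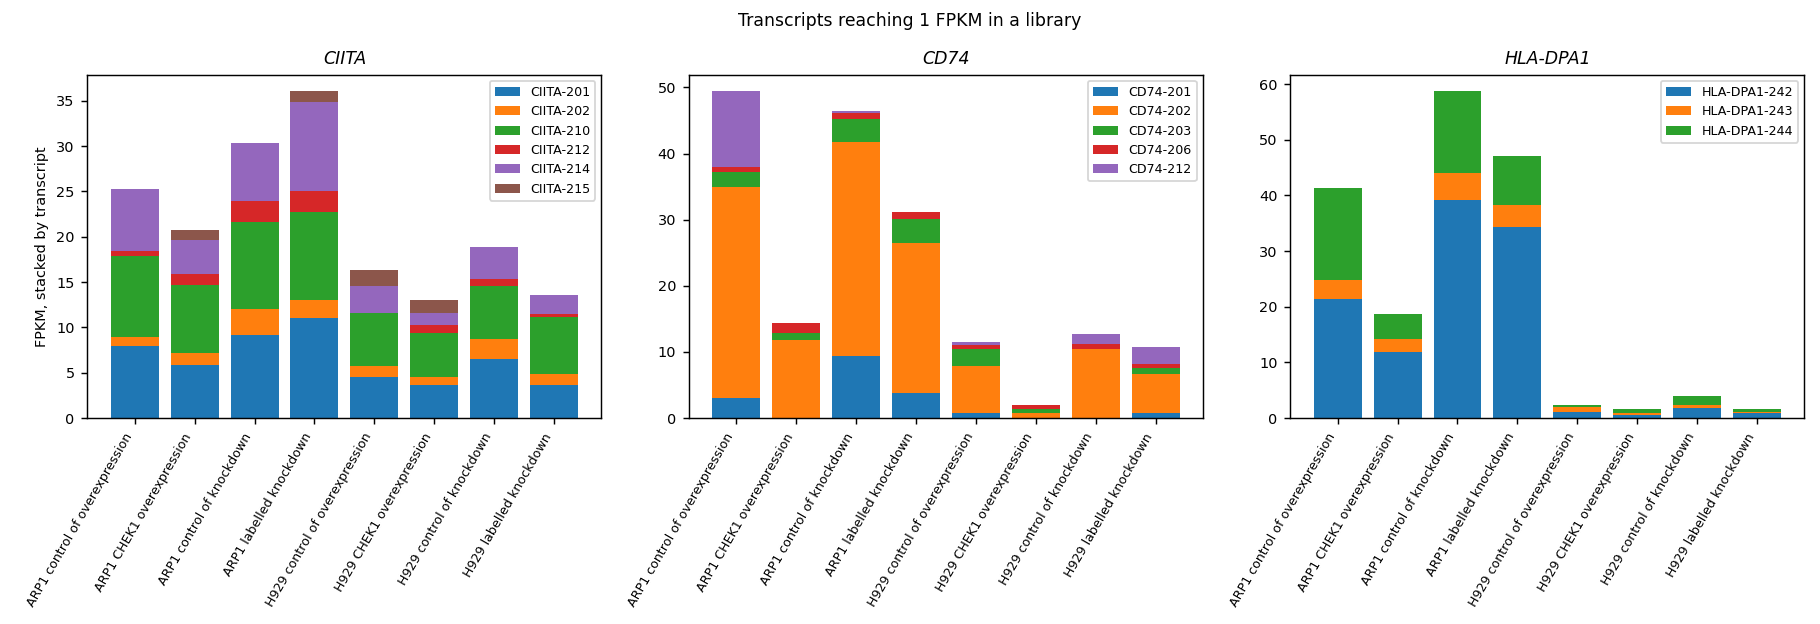
FPKM of CIITA, CD74 and HLA-DPA1 stacked by transcript, for transcripts that reached 1 FPKM in at least 1 library, with the 8 libraries along the horizontal axis. CIITA-210 keeps nearly the same height within a line while the rest of CIITA changes, and the short CD74 transcript drawn last stands out in the ARP1 control of overexpression, at 11.5 FPKM.

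CD74 (ENSG00000019582.14, chr5:150401637-150412929, minus strand), the invariant chain, stood in ARP1 at 49.5 FPKM in the control of overexpression, 14.4 with overexpression, 46.4 in the control of knockdown and 31.2 in the library labelled knockdown. In H929 it stood at 11.4, 1.97, 12.7 and 10.7 FPKM. With overexpression CD74 was 3.43-fold below its own control and 3.22-fold below the other in ARP1, and 5.80-fold and 6.43-fold below in H929. The controls of a line differed from each other far less, with log2 ratios of 0.09 in ARP1 and -0.14 in H929. The library labelled knockdown was also below both controls in both lines, by at most 1.59-fold in ARP1 and 1.18-fold in H929.

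CD74-202, the main CD74 transcript, followed the gene sum: 32.0, 11.9, 32.3 and 22.7 FPKM in ARP1 and 7.10, 0.85, 10.4 and 5.92 in H929, in the same order. A short transcript of the gene (ENST00000524315) reached 11.5 FPKM in the overexpression control of ARP1 and at most 2.48 elsewhere. It made up 23.2% of summed CD74 in that control. The overexpression library was thus lowest in CD74-202 alone as well as in the sum.

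HLA-DRA (ENSG00000204287.13, chr6:32439842-32445046, plus strand), the alpha chain of DR, was the most abundant class II gene in ARP1. It stood there at 159 FPKM in the control of overexpression, 69.6 with overexpression, 188 in the control of knockdown and 126 in the library labelled knockdown. In H929 it stood at 6.22, 1.66, 6.30 and 3.04 FPKM. Overexpression was again the lowest library in both lines, 2.29-fold and 2.71-fold below the own and the other control in ARP1 and 3.75-fold and 3.81-fold below in H929. The library labelled knockdown came next, 1.49-fold and 1.26-fold below its own and the other control in ARP1 and 2.07-fold and 2.04-fold below in H929.

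HLA-DRB1 (ENSG00000196126.11, chr6:32578769-32589848, minus strand), the beta partner of HLA-DRA, was listed far lower. Its ARP1 levels were 5.57, 1.59, 5.58 and 3.60 FPKM in the order control of overexpression, overexpression, control of knockdown and labelled knockdown, and in H929 it reached 0.12 and 0.09 in the controls and was listed at 0 in both manipulated libraries. In ARP1 the overexpression library was 3.49-fold below its own control and 3.50-fold below the other, and the controls themselves were nearly equal. DRB1 is highly polymorphic and has near-identical neighbours. HLA-DRB5 was at most 0.21 FPKM, and reads that differ from the reference allele can be lost or split, so the DRB1 level is uncertain.

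HLA-DPA1 (ENSG00000231389.7, chr6:33064569-33080775, minus strand) and HLA-DPB1 (ENSG00000223865.10, chr6:33075926-33087201, plus strand) are the alpha and beta chains of DP, and their ends overlap. HLA-DPA1 stood in ARP1 at 41.3, 18.7, 58.8 and 47.1 FPKM and in H929 at 2.32, 1.68, 3.89 and 1.65, in the same order of genotypes. HLA-DPB1 stood in ARP1 at 15.4, 5.65, 22.5 and 15.7 FPKM, and no H929 library exceeded 0.61. Both chains were lowest with overexpression in ARP1, HLA-DPA1 2.21-fold below the own and 3.14-fold below the other control and HLA-DPB1 2.72-fold and 3.99-fold below. In the ARP1 library labelled knockdown both lay between the controls. The ARP1 controls themselves differed by 1.42-fold for HLA-DPA1 and 1.47-fold for HLA-DPB1, more than for CD74 or HLA-DRB1. In H929 HLA-DPA1 was about as low in the library labelled knockdown as with overexpression, and HLA-DPB1 was too low to order.

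HLA-DQB1 (ENSG00000179344.16, chr6:32659467-32668383, minus strand), the beta chain of DQ, was near the limit of the filter. It stood in ARP1 at 1.48, 0.77, 2.24 and 1.34 FPKM, with the overexpression library lowest, and was listed at 0 in all 4 H929 libraries. HLA-DQA1, the alpha chain it normally pairs with, was listed at 0 everywhere. Its close copy HLA-DQA2 was listed instead, at 5.77, 1.18, 3.90 and 2.98 FPKM in ARP1 and at most 0.29 in H929. Reads of these copies cannot be assigned with certainty, and an antisense gene lies over HLA-DQB1.

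HLA-DMA (ENSG00000204257.14, chr6:32948613-32969094, minus strand) and HLA-DMB (ENSG00000242574.8, chr6:32934629-32941070, minus strand) form DM, which swaps the invariant chain remnant for peptide. HLA-DMA stood in ARP1 at 18.9, 10.6, 24.8 and 12.8 FPKM and in H929 at 5.12, 3.57, 6.53 and 3.39. In both lines the overexpression library and the library labelled knockdown lay close together and below both controls. HLA-DMB stood in ARP1 at 7.36, 3.86, 6.90 and 4.55 FPKM, with both manipulated libraries below both controls, and reached at most 0.94 in H929. HLA-DMA overlaps BRD2 on the other strand, and a read-through gene overlaps both DM genes.

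HLA-DOB (ENSG00000241106.7, chr6:32812763-32820466, minus strand), the beta chain of the DM inhibitor DO, differed from the other 9 genes. It stood at 1.10, 1.25, 0.999 and 1.46 FPKM in ARP1 and 0.88, 1.04, 1.70 and 1.81 in H929. The overexpression library was above both controls in ARP1 and between them in H929, and the library labelled knockdown was the highest in both lines. The levels are close to 1 FPKM, and the H929 controls differed from each other by 1.93-fold. Its partner HLA-DOA was at most 0.59 FPKM and failed the filter.

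By level per length, HLA-DRA led in ARP1, where its lowest library (69.6 FPKM) lay above every library of the other 9 genes. HLA-DPA1, CD74, CIITA, HLA-DMA and HLA-DPB1 followed at means of 41.5, 35.4, 28.2, 16.8 and 14.8 FPKM, then HLA-DMB, HLA-DRB1, HLA-DQB1 and HLA-DOB at 5.67, 4.08, 1.46 and 1.20. Apart from HLA-DRA beside HLA-DPA1, neighbours in this order overlapped in their ranges over the 4 libraries. In H929 summed CIITA led instead, with a lowest library of 13.0 FPKM above the highest of CD74 at 12.7. That lead holds for the sum with CIITA-210, which made up 31.0% to 46.4% of it in H929. The 4 CIITA transcripts that begin at or just after 10877198 held 5.81 to 12.3 FPKM there, overlapping CD74 at 1.97 to 12.7. HLA-DRA, at a mean of 4.30, stood below CD74 and HLA-DMA, with ranges that overlapped theirs.

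Counted over the 10 genes, 9 lay below both controls with overexpression in ARP1 and 7 in H929, where HLA-DPB1, HLA-DOB and HLA-DQB1 did not. Of all genes kept by the filter, 52.5% lay below the own control and 52.6% below the other in ARP1. In H929 these shares were 48.6% and 50.3%, and the share below both controls was not worked out. With a threshold of 1.5-fold below both controls on FPKM plus 1, the ARP1 overexpression library held 7 genes: CD74, HLA-DRA, HLA-DRB1, HLA-DPA1, HLA-DPB1, HLA-DMA and HLA-DMB. Of the 14905 genes that passed the filter, 3.29% met that threshold. In the H929 overexpression library CD74 and HLA-DRA met it, 2 of 10 genes, against 2.78% of all genes. The same 2 met it in both lines, as did 0.376% of all genes. Since these values chose the genes, nothing is read from the counts. With a pseudocount of 0.1 in place of 1, the H929 count was 4.

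For the libraries labelled knockdown, 6 genes lay below both controls in ARP1 and 6 in H929. Of all genes kept by the filter, 52.1% lay below the own control and 51% below the other in ARP1, and 48.4% and 46.8% in H929. The share below both was not worked out, so nothing is read from these counts. At 1.5-fold the counts were 0 in ARP1, where 7.21% of all genes met the threshold, and 1 in H929 (HLA-DRA), where 1.82% did. The median log2 ratio of the 10 genes was -0.94 to the own control and -1.25 to the other for ARP1 overexpression, and -0.24 and -0.61 in H929. For the libraries labelled knockdown it was -0.50 and -0.21 in ARP1 and -0.43 and -0.13 in H929. Over all genes kept by the filter these medians ran from -0.03 to 0.02. The control of overexpression was itself below the control of knockdown, with a median of -0.25 over the 10 genes in each line. Both manipulations were set against the same pair of controls, so these ratios are not independent of each other.

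**Figure D3:**
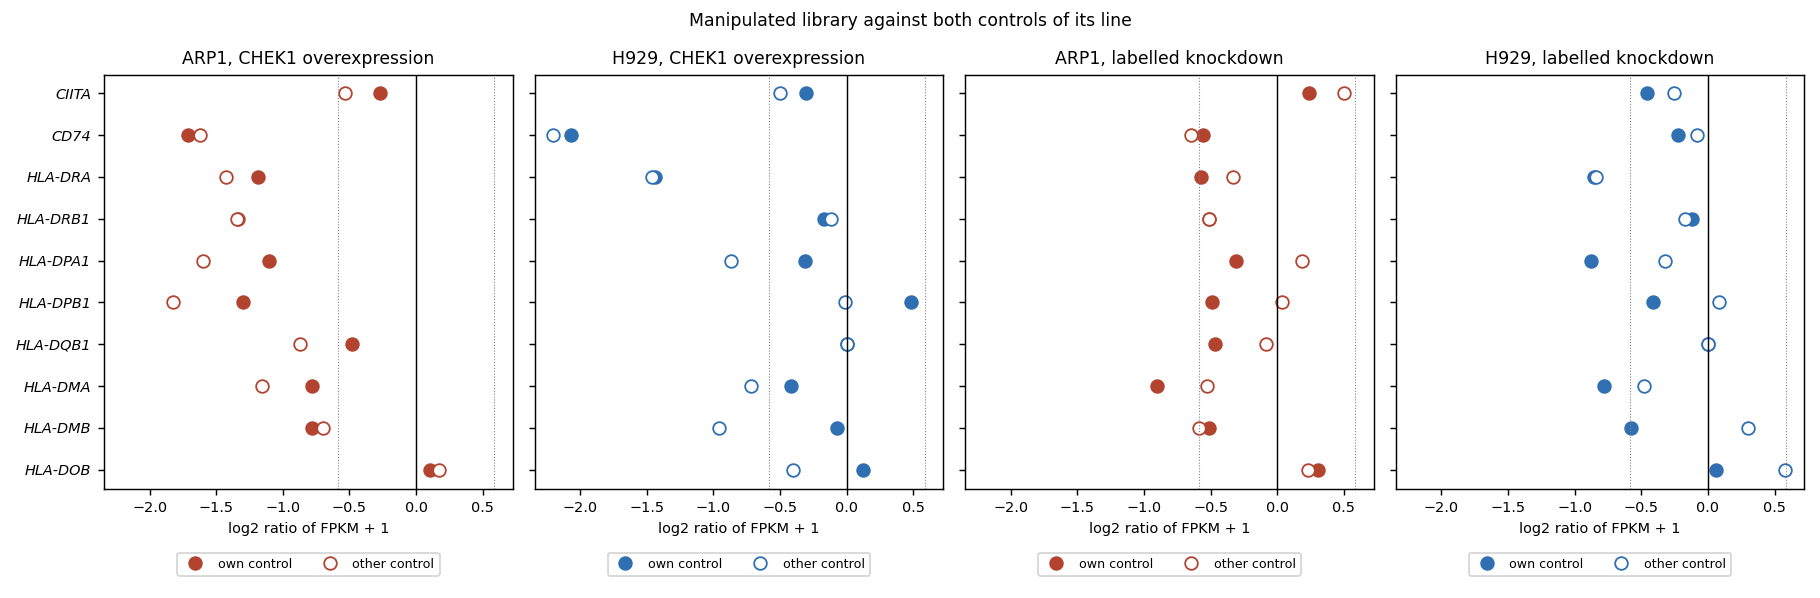
Log2 ratio of FPKM plus 1 for each manipulated library against its own control (filled) and the other control of its line (open), with dotted lines at 1.5-fold. In ARP1 overexpression 7 of 10 genes have both points left of the dotted line, CD74 lies at -2.07 and -2.20 in H929, and HLA-DOB has both points right of 0 in 3 of the 4 panels.

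Between the lines, class II genes were higher in ARP1. The test was limma on log2 of FPKM plus 1 over all 14905 genes, with genotype as a block that pairs the lines and 4 libraries per line. CIITA was 28.2 ± 6.65 FPKM in ARP1 and 15.5 ± 2.72 in H929 (mean ± SD over 4 genotypes), a difference of 0.81 on the log2 scale (SE 0.15, limma adjusted p = 0.0111). CD74 was 35.4 ± 16.1 and 9.20 ± 4.89 FPKM, a log2 difference of 1.91 (SE 0.16, limma adjusted p = 0.000952). HLA-DRA was 136 ± 51.0 and 4.30 ± 2.33 FPKM, 31.6-fold by the means, with a log2 difference of 4.72 (SE 0.11, limma adjusted p = 8.12e-06). The gap in summed CIITA was thus 1.82-fold by the means, against 3.84-fold for CD74 and 31.6-fold for HLA-DRA. For the 4 CIITA transcripts that begin at or just after 10877198 it was 2.03-fold, and for the noncoding CIITA-210 it was 1.56-fold. Whether these genes differ in the size of their gap was not tested.

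Among the remaining chains and editors, HLA-DPA1 was 41.5 ± 16.8 FPKM in ARP1 and 2.39 ± 1.05 in H929, a log2 difference of 3.59 (SE 0.21, limma adjusted p = 0.000336). HLA-DMA was 16.8 ± 6.40 and 4.65 ± 1.47 FPKM, a log2 difference of 1.62 (SE 0.12, limma adjusted p = 0.000691). In each of these 5 genes the lowest ARP1 library lay above the highest H929 library. The share of all genes separated in this way was not worked out, so nothing is read from it. HLA-DRB1, HLA-DPB1, HLA-DQB1 and HLA-DMB did not reach 1 FPKM in any H929 library, so they passed the filter through ARP1 alone. That favours a difference, and no p-value is given for these genes. Their log2 differences were 2.18, 3.39, 1.26 and 2.35. HLA-DOB did not pass the test: its log2 difference was -0.08 (SE 0.19, limma adjusted p = 0.781), and the lines overlapped. Of the 6 genes that reached 1 FPKM in H929 libraries as well, 5 were called higher in ARP1 and HLA-DOB was not. Over all genes tested 13.7% were called higher in ARP1 and 27.1% in either direction. The split of all calls was 2036 higher and 1999 lower, and 1814 and 2623 when gene sums were rescaled to a fixed total per library. The comparison reaches no further than these 2 lines, and the mature B cell markers PAX5 and CD79A were also higher in level in ARP1, where their part in the difference was not tested.

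**Figure D4:**
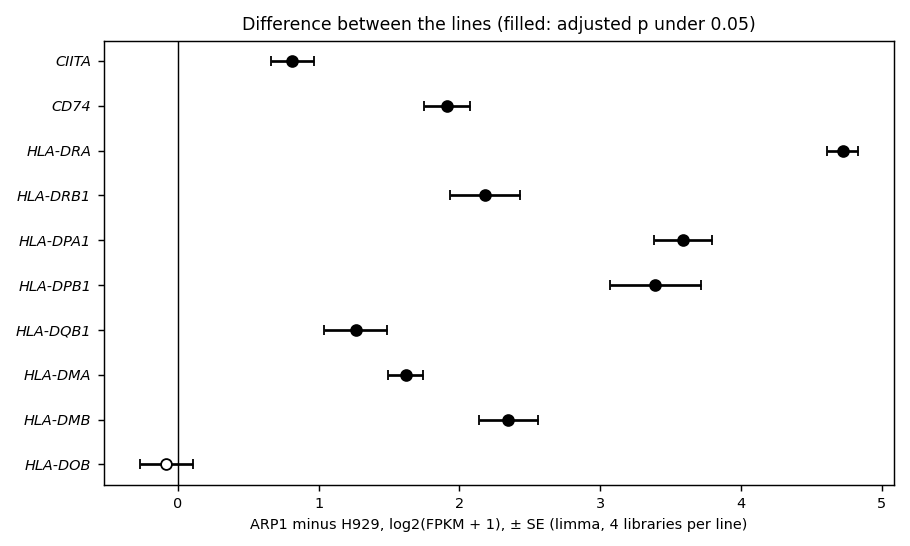
Difference between ARP1 and H929 in log2 of FPKM plus 1 for each of the 10 genes, with bars of ± 1 SE from limma over 4 libraries per line and filled points for adjusted p under 0.05. HLA-DRA stands highest at 4.72, CIITA stands at 0.81, and HLA-DOB at -0.08 is the one open point. HLA-DRB1, HLA-DPB1, HLA-DQB1 and HLA-DMB passed the filter through ARP1 alone, which favours a difference. Their filled points are therefore not read as test results.

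Around the 10 genes, 57 genes of the same pathway in 8 lists were read beside them, of which 47 passed the filter. Between the lines 12 of the 47 were called higher in ARP1 and 3 lower by limma, together 31.9%, near the 27.1% called over all genes, so the share says nothing particular of these lists. Of the 12, CST3, HLA-DQA2, IFNGR2, IRF8 and PAX5 reached 1 FPKM in no H929 library. Passing the filter through ARP1 alone favours a difference, so only their levels or differences are given. The 3 lower genes were CTSS, the cathepsin that cuts the invariant chain (log2 difference -2.05, adjusted p = 0.003), EZH2, a repressive histone methyltransferase (-0.60, adjusted p = 0.00541), and JAK1, a kinase of interferon receptors (-0.68, adjusted p = 0.00509). CST3, an inhibitor of cysteine cathepsins, stood at 46.1 to 52.9 FPKM in the ARP1 libraries and at most 0.15 in H929 (log2 difference 5.59). CTSS stood at 2.97 to 4.93 FPKM in the ARP1 libraries and 10.4 to 26.8 in those of H929, so this protease and its inhibitor were high in opposite lines.

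Of the promoter factors, RFX5, the DNA-binding subunit of the RFX complex, was called higher in ARP1 by 0.40 on the log2 scale (limma adjusted p = 0.0489), and 6 of 7 factors, NFYA, RFXANK and NFYC among them, were not called. Of the CIITA cofactors 1 of 8 was higher, CREBBP, a histone acetyltransferase (0.50, limma adjusted p = 0.0398), and HDAC2, the most abundant, was not called. Of the 6 B and plasma cell regulators tested, XBP1, the plasma cell secretory factor, was called higher (0.85, limma adjusted p = 0.00321). PAX5, the B cell identity factor (log2 difference 1.74), and IRF8 (1.15) passed the filter through ARP1 alone, so no test is read for them. PAX5 and IRF8 were listed at 0 in all H929 libraries and were at most 3.75 and 2.06 FPKM in ARP1. IRF4 and PRDM1, which drive plasma cell fate, were not called, and PRDM1, a repressor of CIITA, stood at 126 to 160 FPKM in the ARP1 libraries and 155 to 176 in those of H929.

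LGMN, an asparagine endopeptidase of endosomes (0.75, limma adjusted p = 0.0415), was also higher in ARP1, as were IFNGR2 (log2 difference 0.83) and HLA-DQA2 (1.86). So were 2 of 5 neighbours in the class II region, TAP1 (0.30, limma adjusted p = 0.0396) and PSMB9 (0.44, adjusted p = 0.0473), and NLRC5, the class I transactivator, read with them (0.52, limma adjusted p = 0.0141). None of MARCH1, MARCH8 and CD83, which set how long class II stays at the surface, was called. The median log2 difference over the 47 genes was 0.10, beside 0.0013 over all genes. Under the alternative settings tried, 7 of the 15 calls (CST3, CTSS, EZH2, HLA-DQA2, JAK1, PAX5 and XBP1) held in every one that gave a value, and the other 8 were lost in 4 to 12 of them, RFX5 in 12 of 18. Of the 7, CST3, HLA-DQA2 and PAX5 are among those that passed the filter through ARP1 alone.

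With CHEK1 overexpression 0 of the 47 pathway genes passed limma's test after adjustment, and 3 had an unadjusted p under 0.05 (HLA-DQA2 and BCL6 among them). Over all genes 1 passed, 0.00671%. RFX5 stood at 55.8 FPKM with overexpression against 64.3 and 77.2 in the ARP1 controls, and at 36.0 against 50.0 and 74.6 in H929. It was the lowest of its line in both lines, but its limma log2 difference of -0.33 had an adjusted p = 0.994.

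For the libraries labelled knockdown 0 of the 47 passed limma's test and 4 had an unadjusted p under 0.05 (IRF2, BCL6 and IFI30 among them), beside 2 genes called over all, 0.0134%. RFX5 stood at 108 FPKM in ARP1, above both controls, and at 73.3 in H929, between them. Without the H929 library labelled knockdown 3 pathway genes were called, IRF2 (log2 1.03), IRF4 (1.38) and SMARCA4 (-0.67), beside 6.82% of all genes tested. That leaves 1 knockdown library, which the fit assumes to vary like the other groups.

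The pattern of the 10 genes across the libraries was also compared with every other gene with a mean of at least 2 FPKM and a range of at least 1 on the log2 scale in each line, 413 in number. Levels were centred within each line, so the difference between the lines did not enter. The mean of the 10 genes was -0.67 with overexpression, 0.21 and 0.42 in the controls and 0.04 in the library labelled knockdown in ARP1, and -0.36, 0.06, 0.36 and -0.06 in H929. The closest were MIAT, a long noncoding RNA (Pearson r 0.96 over 8 libraries), ASB2, a subunit of a ubiquitin ligase (0.96), POU2F2, the B cell factor OCT2 (0.92), NCAM1, the adhesion molecule CD56 (0.92), and ADAM8, a metalloprotease (0.91). The most opposed were ZNF33B (-0.86), TRIB2 (-0.84), ZBTB7C (-0.80), GNAL (-0.77) and KLF2, a transcription factor (-0.76). These are the extremes of 413 values over libraries that share lines and controls, and they are given as a description.

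POU2F2 stood at 6.07, 2.97, 10.9 and 6.68 FPKM in ARP1 and at 0.87, 0.53, 3.0 and 1.20 in H929, in the order used above. MIAT had 19.5, 9.61, 24.5 and 18.6 FPKM in ARP1 and 11.7, 5.86, 14.9 and 10.8 in H929. Both were lowest with overexpression in each line. TRIB2 stood at 57.0, 147, 71.0 and 56.7 FPKM in ARP1 and 140, 244, 119 and 121 in H929, highest with overexpression in each line.

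**Figure D5:**
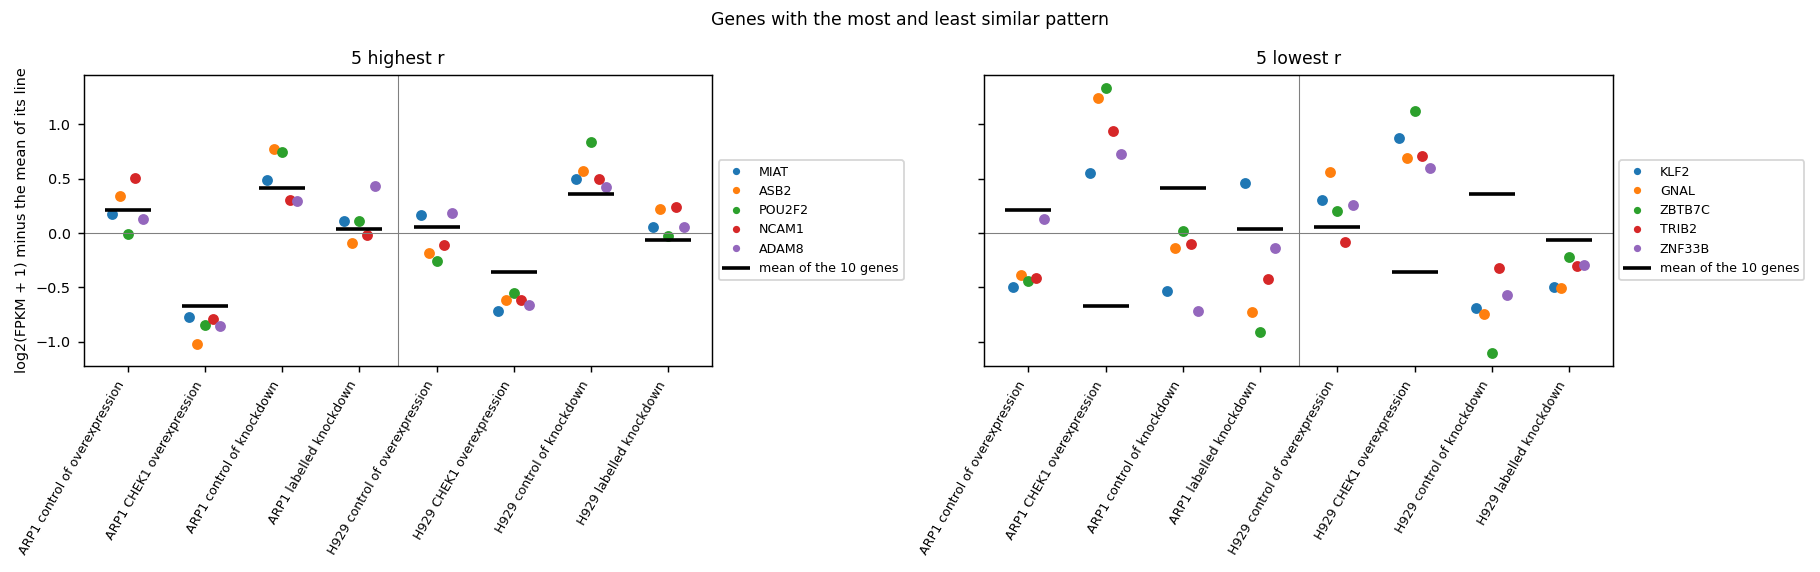
Log2 of FPKM plus 1 minus the mean of its line for the 5 genes with the highest and the 5 with the lowest Pearson r to the class II mean, in the 8 libraries, with black bars for the mean of the 10 genes. The bars are lowest with overexpression in both lines, at -0.67 in ARP1 and -0.36 in H929, and the 5 opposed genes are above 0 there.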

How the data were processed

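RNA from ARP1 and H929 was extracted with Trizol and selected for poly(A) before paired-end sequencing, per the labels' protocols. The authors deposited 1 table of FPKM per transcript for the 8 libraries. Bowtie 0.12.2, HISAT2 2.0 and StringTie 1.3.0 are named per the submitters' processing notes. Those notes name a mouse build, which the human transcript identifiers go against, and the build used for counting, strand and read depth are not given in the sources used here. No counting error could therefore be worked out. The table's values are called means, and how many runs stand behind a column is not stated. Nothing says that libraries came from separate cultures, so the p-values speak only to the spread among these libraries.

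Transcripts were joined to genes by GENCODE release 29 on GRCh38 (87707 matched, 502 left out), and FPKM was summed per gene. A gene was kept when 2 or more libraries had it at 1 FPKM or higher, which left 14905 of 24351. All 8 libraries were fitted on log2 of FPKM plus 1 in limma 3.58.1 (R 4.3.3) with cell line and genotype as terms and a variance trend, two-sided, with Benjamini-Hochberg adjustment at 0.05. Log2 differences understate changes of low genes. Each line holds each genotype once, so the labels pair the lines by genotype, which enters the test between the lines as a block. In the tests of genotype the cell line is the block, and no genotype is replicated within a line. Within a line, ratios to both controls were taken without a test. The members, the lists and the tests were chosen with earlier results of these data known. Pathway genes named were up to 4 per list with the highest mean FPKM and those past the test. Outside that rule, BCL6 was named for its unadjusted p and HLA-DQA1 as the partner of HLA-DQB1. The fit was checked on simulated data.

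Promoters came from a RefSeq table on GRCh38.p14 (250 bases before to 50 after a start). Stretches were printed up to the base before the nearest GENCODE transcript start. Alternatives were another pseudocount (0.1), another filter (none, or 5 FPKM), another scaling (quantile, median-ratio, or rescaled to a fixed total), no variance trend, robust variances, gene sums without transcripts under 300 nt, no block, pooled controls, leaving out each library, 2-fold as the threshold and each control alone. FPKM multiplied by transcript length was added after seeing the data. Some marker and pathway genes are not reported here.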

Additional observations from a re-analysis of the deposited data

Results flagged for a closer look

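CIITA moved in opposite directions in the libraries labelled knockdown. It was above both controls in ARP1 (36.2 FPKM against 30.5 and 25.3) and below both in H929 (13.5 against 18.9 and 16.4). The log2 ratio to the own control was 0.24 in ARP1 and -0.45 in H929, 0.69 apart, and with 1 library on each side this difference was not tested. In H929 the library labelled knockdown held 84.8 FPKM of CHEK1 against 80.7 in its control. The levels of the 10 genes in 19 groups of 4 libraries were also searched by a gap rule for a library far from the rest, and 0 met it. The libraries of a group are different genotypes, and among 4 values only a very wide gap can meet such a rule. CD74 in the H929 overexpression library, at 1.97 FPKM against 10.7 to 12.7 in the others of its line, did not, so nothing is read from the 0.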

How the results depend on the processing

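CIITA, CD74, HLA-DRA, HLA-DPA1 and HLA-DMA were called between the lines under all 18 alternatives, with an adjusted p of at most 0.0388. The count over all 10 genes was 9, or 8 with FPKM of at least 5. Of the 9, 4 passed the filter through ARP1 alone, which favours a difference, so that count says little of stability. The log2 difference of HLA-DOB ran from -0.16 to 0.036 with 1 library left out, turning positive without the control of knockdown of either line, and was not called in any setting. The count of all genes called, 4035, ran from 1948 to 4136 with 1 library left out. With no block for genotype it was 3173, and the class II count was 9. Leaving out 1 library leaves its partner fitted exactly, so both lose their weight. Pathway calls in overexpression were 0 in every alternative. Those in the libraries labelled knockdown ran from 0 to 3 with 1 library left out, the 3 being without the H929 library labelled knockdown, and were 0 otherwise. Counts at 1.5-fold below both controls, with 2 main calls in H929 overexpression, became 4 with a pseudocount of 0.1 and 5 against the other control alone. For ARP1 labelled knockdown the main count of 0 became 2, 1 against the own control alone and 2 against the other. For H929 labelled knockdown the main count of 1 became 0 at 2-fold, 2 with a pseudocount of 0.1 and 3 against the own control alone. The ARP1 overexpression count of 7 stayed within 1.5 times. The cause of these shifts was not tested. No read depth was given, so the precision of levels near or under 1 FPKM is unknown, above all for HLA-DOB, HLA-DQB1 and most H929 levels.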
